A study of Homo sapiens with 3 samples.

Results

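The 10 genes described here encode members of the BCL2 family, namely BAX, BAK1, BCL2, BCL2L1, MCL1, BCL2A1, HRK, BBC3, PMAIP1 and BCL2L11. They were taken as a fixed list of names, chosen with earlier results of these data known. Shares and medians of the list set beside those of all probes are therefore descriptive only. Every array probe whose RefSeq accession belonged to 1 of the 10 genes was included and is given on its own. This gave 15 probes for the 10 genes, out of 58201 probes on the array, of which 31104 could be named for 22439 genes. Of the 10 genes, 6 had 1 probe each, BAX, BCL2 and BCL2A1 had 2 each and BCL2L11 had 3.

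Gene expression in TK-10, an established line from a human renal cell carcinoma, was measured on 3 single-colour arrays after 48 h of treatment, with 1 array per condition and no replicates. The vehicle array was of cells given 0.1% DMSO. The cordyceps array was labelled as cordyceps, the fungus genus, at 750 μg/ml, whereas the study's text names cordycepin, the adenosine analogue made by these fungi, and the agent used cannot be settled from the data. The sunitinib array was of cells given 10 μM sunitinib, a receptor tyrosine kinase inhibitor that the study's text does not describe. According to the labels, all 3 cultures were grown in DMEM with 10% fetal bovine serum, to which zinc sulfate at 16.7 μM, troglitazone at 10 μM and nicotinamide at 10 mM had been added, so these agents were present in the vehicle cells as well. The comparisons describe that 1 line only.

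The BCL2 family decides whether the outer mitochondrial membrane is breached during apoptosis. BAX and BAK1 are the effectors, which oligomerise into pores that release cytochrome c. BCL2, BCL2L1, MCL1 and BCL2A1 are antiapoptotic guardians that hold the effectors and their activators in check, and HRK, BBC3, PMAIP1 and BCL2L11 are BH3-only proteins that neutralise guardians or activate effectors. In renal carcinoma the intrinsic route is of interest because the tumours often resist cell death. The list thus held 2 effectors with 3 probes, 4 guardians with 6 probes and 4 BH3-only genes with 6 probes.

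Each value is a processed fluorescence intensity, and each level is its log2 value less that of the array's 75th percentile. This percentile was an intensity of 165 on the vehicle array, 138 on the cordyceps array and 78.2 on the sunitinib array. A ratio is the difference of the levels of 1 probe on 2 arrays. A ratio was called when it exceeded 2-fold, and it was given as measured when Agilent's software had flagged the probe as well above background on both arrays. With 1 array per condition, there was no test to make, and p-values are absent here. The technical limit beside a ratio is the 95% limit from the software's own error of both spots, and it leaves out all spread between cultures. Both treated arrays were compared with the same vehicle array, so an error on that array enters both ratios of a gene. Levels of different probes were not compared, since probes differ in brightness.

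Slide and scan did not differ between the conditions, since all arrays shared 1 slide and 1 scan. Of all probes, 45.5%, 37.8% and 38.3% were well above background on the vehicle, cordyceps and sunitinib arrays, and the lowest such intensity was 18.2, 30.2 and 18.3, respectively. Areas of raised brightness covered 570 spots of the cordyceps array and 40 of the sunitinib array, and no spot of the BCL2 family probes lay in them. All 8 renal epithelial markers that could be named were well above background on each array. Of these, 1 was called, CDH6, which was lower by 2.38 on the log2 scale on the cordyceps array. By the probe brightest on the vehicle array, 2, 1 and 1 of the 4 named leukocyte markers and 2, 2 and 1 of 3 endothelial markers were well above background on the vehicle, cordyceps and sunitinib arrays. A further probe of the leukocyte gene PTPRC, outside these counts, read 18.4 with vehicle, near the lowest such intensity, and 45.7 with sunitinib. CD14, the brightest leukocyte marker, went the other way, at 693 with vehicle, 374 with cordyceps and 116 with sunitinib. Its level was more than 2-fold lower on the sunitinib array. The log2 level of the summed intensity of the leukocyte markers was 2.17, 1.58 and 0.99 on the vehicle, cordyceps and sunitinib arrays. CD14 made up 693 of the summed 741 on the vehicle array. The log2 level of the summed intensity of the 4 fibroblast markers was 5.43, 3.74 and 3.62 on the vehicle, cordyceps and sunitinib arrays. COL1A1 made up 5308 of the summed 7104 on the vehicle array. COL1A1, DCN and LUM were more than 2-fold lower on each treated array, COL1A1, the brightest, by 2.06 and 2.71 on the log2 scale. The remaining fibroblast marker, PDGFRB, had log2 ratios of -0.19 for cordyceps and 0.66 for sunitinib. The part of these differences in the results below was not tested.

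On the cordyceps array, the RNA signals of both effectors and of 3 of the 4 BH3-only genes were higher than on the vehicle array, and BCL2L11 was lower, directions that held under each scaling tried. The guardians MCL1 and BCL2L1 were likewise higher under each, at log2 ratios of 0.26 to 0.74 and 0.01 to 0.48. The direction of BCL2A1 probe 1 varied, from -0.16 to 0.32. HRK stood 5.14-fold higher and was the only 1 of the 14 probes compared to pass 2-fold (7.14%), where 3.6% of all 26872 probes compared passed 2-fold in the higher direction. BAX came next at 1.94-fold. None of the 14 probes was more than 2-fold lower, against 2.49% of all probes. Of the 12 probes measured on both arrays, 7 were higher beyond their technical limit, 2 were lower beyond it and 3 were within it, where 14.2% of all 21600 measured probes were higher and 12.9% lower by that limit. The median log2 ratio of the 12 probes was 0.48, beside 0.00 for all measured probes.

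On the sunitinib array, the calls fell on BH3-only genes and went both ways. All 3 probes of BCL2L11 were more than 2-fold higher, the largest 4.32-fold, and PMAIP1 was 4.13-fold lower. Thus 3 of 14 probes compared (21.4%) were called higher, all of 1 gene, beside 8.08% of all 27147 probes, and 1 of 14 (7.14%) was called lower, beside 5.67%. Of the 11 probes measured on both arrays, 5 were higher and 1 was lower beyond the technical limit and 5 were within it, where the shares over all 21623 measured probes were 25.6% and 19.8%. The median log2 ratio of the 11 probes was 0.26, beside 0.05 for all measured probes.

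The number of calls depended on how the arrays were put on a common scale. Of all calls over cordyceps and vehicle, 59.1% were in the higher direction on the 75th percentile scale, 79.8% after scaling to the median and 31.6% on the unscaled intensities. For sunitinib and vehicle the shares were 58.7%, 28.3% and 3.1%, and 40.8% with a normexp background correction. Scaling to the median moved the median log2 ratio of all measured probes to 0.22 for cordyceps and to -0.28 for sunitinib, and the unscaled intensities moved it to -0.25 and -1.02. The side of the technical limit depended on the scaling as well. Over the 75th percentile scale and 5 other settings, the scalings and normexp, 4 of the 12 probes measured for cordyceps and 3 of the 11 measured for sunitinib stayed on the same side. These were both BAX probes, HRK and BCL2A1 probe 1 for cordyceps, the last within its limit, and PMAIP1 and BCL2L11 probes 2 and 3 for sunitinib.

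**Figure D1:**
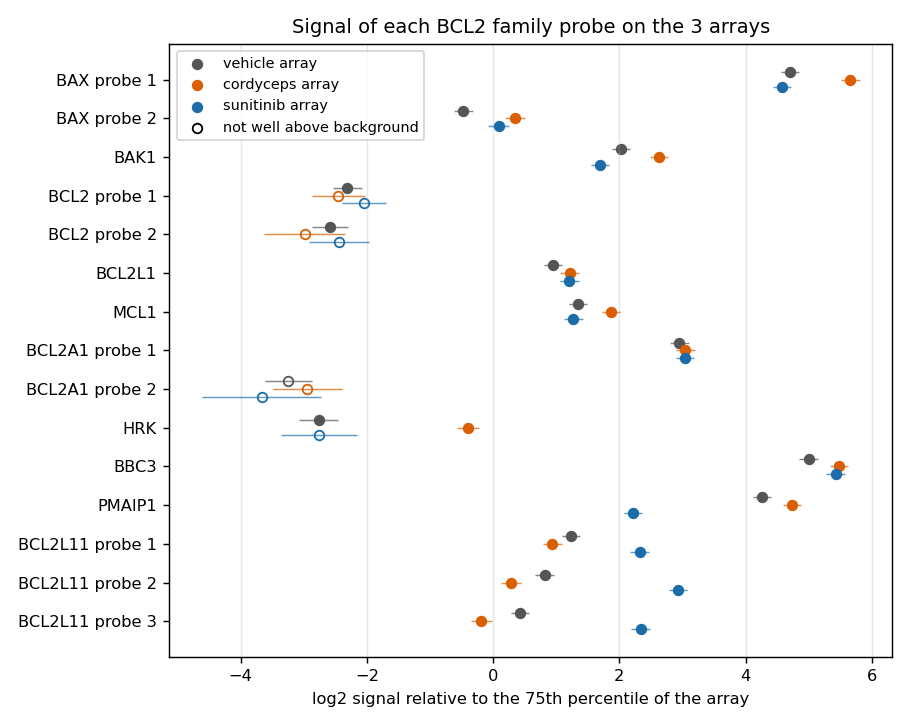
Log2 signal of each BCL2 family probe relative to the 75th percentile of its array (horizontal axis), with 1 point per array and bars for 1 software error of the spot; open points are not well above background. HRK is set apart on the cordyceps array, PMAIP1 on the sunitinib array to the left and the 3 BCL2L11 probes on the sunitinib array to the right, and points of different probes are not comparable with each other.

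**Figure D2:**
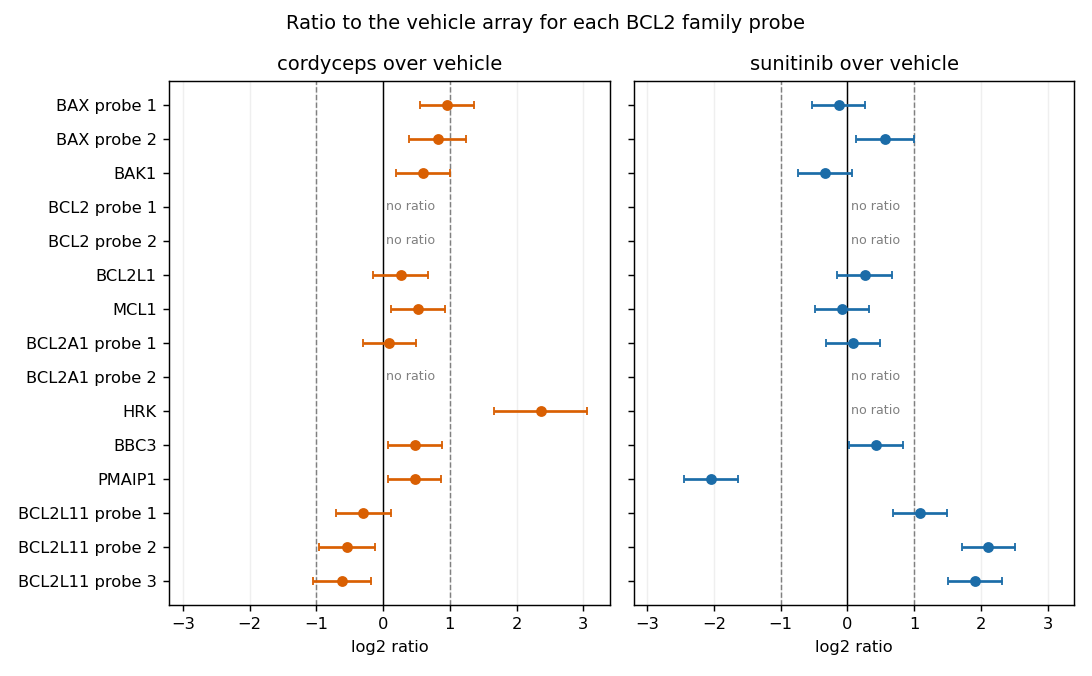
Log2 ratio of each probe on the cordyceps array (left) and the sunitinib array (right) over the vehicle array, with bars for the 95% technical limit and dashed lines at 2-fold. HRK at 2.36 is the only probe past 2-fold in the left panel, and PMAIP1 at -2.05 and BCL2L11 at 1.08 to 2.11 are past it in the right panel.

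Among the effectors, BAX had a probe printed in 10 spots on each array, which gave the only repeated measurement among the 15 probes. BAX encodes a protein that moves from the cytosol to mitochondria upon activation. The probe, for accession NM_138764, read a mean intensity of 4289 on the vehicle array, 6976 on the cordyceps array and 1857 on the sunitinib array. Its spots ran from 4118 through a median of 4291 to 4407 on the vehicle array. They ran from 6662 through 6986 to 7234 on the cordyceps array and from 1779 through 1855 to 1923 on the sunitinib array. The spots of the 3 arrays did not overlap, either as intensities or as levels.

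Relative to the 75th percentile, the 10 spots spanned log2 levels of 4.65 to 4.74 on the vehicle array, 5.59 to 5.71 on the cordyceps array and 4.51 to 4.62 on the sunitinib array. The cordyceps array was thus higher than vehicle by 0.96 ± 0.045 on the log2 scale (SD of the difference over 10 spots per array), just short of 2-fold, and the sunitinib array was lower by 0.13 ± 0.044. The SD of the spots was 0.028 on the vehicle array, 0.035 on the cordyceps array and 0.034 on the sunitinib array, where the median SD of the probes printed in 10 spots was 0.049, 0.056 and 0.059. The software's 95% limit of 0.40 is wider than this spread, and by it the cordyceps ratio was beyond the technical limit and the sunitinib ratio was within it. Spots of 1 array share 1 RNA sample and are not replicates of a treatment. The RNA came from whole cultures, so fewer expressing cells and less RNA per cell cannot be told apart.

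**Figure D3:**
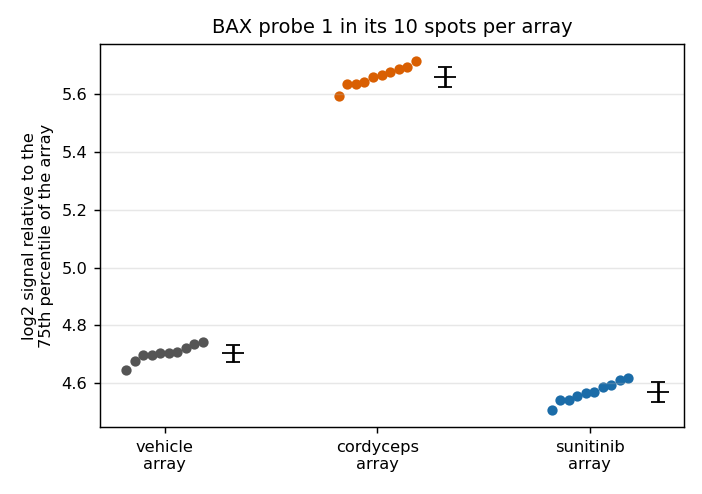
Log2 level of BAX probe 1 in each of its 10 spots on each array, relative to the 75th percentile of the array, with the mean and SD beside the points. The cordyceps spots lie between 5.59 and 5.71, above all vehicle spots at 4.65 to 4.74 and all sunitinib spots at 4.51 to 4.62.

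The other BAX probe, for accession NM_004324, was far dimmer, at an intensity of 119 on the vehicle array, 175 on the cordyceps array and 82.9 on the sunitinib array. Its log2 ratio over vehicle was 0.82 (limit 0.43) for cordyceps and 0.56 (limit 0.44) for sunitinib. The BAX probes thus had the same direction for cordyceps, and both passed 2-fold after scaling to the median, at 1.18 and 1.04. For sunitinib they differed in direction, -0.13 against 0.56, a difference of -0.69 with a limit of 0.59 that holds at any scaling factor, and on the unscaled intensities both were below 0, at -1.21 and -0.52.

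The 250 bases before the annotated start of BAX (RefSeq, GRCh38.p14, chr19:48954625-48954874, plus strand) are shown because BAX had the second largest cordyceps ratio of the genes and because of their repeated motif, the E-box CACGTG, given in capitals. The E-box is the site of MYC and related basic helix-loop-helix factors.
BAX: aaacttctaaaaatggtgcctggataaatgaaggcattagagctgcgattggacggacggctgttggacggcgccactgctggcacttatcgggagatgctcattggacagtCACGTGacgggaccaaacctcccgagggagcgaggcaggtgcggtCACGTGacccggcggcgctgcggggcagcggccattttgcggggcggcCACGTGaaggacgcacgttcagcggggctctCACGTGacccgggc
It occurs 4 times, beginning 138, 93, 45 and 14 bases before the start. At least 1 CACGTG was found in 6.34% of 35116 promoter windows of the same length, and a match describes the letters only.

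BAK1, the effector that resides in the outer mitochondrial membrane, read 670 on the vehicle array, 851 on the cordyceps array and 253 on the sunitinib array. Its log2 ratio over vehicle was 0.60 for cordyceps, beyond the technical limit of 0.40, and -0.33 for sunitinib, within it. On the unscaled intensities the cordyceps ratio was 0.34, within the limit, and after scaling to the median the sunitinib ratio was -0.66, beyond it. Both effectors were thus highest on the cordyceps array. Set directly against sunitinib, the cordyceps array was higher by 1.09 ± 0.049 on the log2 scale for BAX probe 1 and by 0.93 for BAK1, while BAX probe 2 differed by 0.26, within its limit of 0.44.

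Among the guardians, no probe was called in either comparison. BCL2, the founding member of the family, had 2 probes, for accessions NM_000633 and NM_000657, that were well above background on the vehicle array only. They read 33.2 and 27.4 on the vehicle array, 25.2 and 17.4 on the cordyceps array and 19.0 and 14.4 on the sunitinib array. Of the 308 negative control spots, which match no human transcript, 3 and 5 on the vehicle array, 6 and 7 on the cordyceps array and 2 and 3 on the sunitinib array were at least as bright. No ratio is given for BCL2, because the lowest intensity well above background on the treated arrays left no bound above 1.

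MCL1, a guardian with a short-lived protein, read 419 on the vehicle array, 503 on the cordyceps array and 188 on the sunitinib array. Its log2 ratio was 0.52 for cordyceps, beyond its limit of 0.40, and -0.08 for sunitinib, within it. MCL1 was thus the only guardian probe with a ratio beyond the technical limit, and its cordyceps ratio fell to 0.26 on the unscaled intensities.

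BCL2L1, which encodes BCL-XL and by splicing the proapoptotic BCL-XS, read 318, 320 and 180 on the vehicle, cordyceps and sunitinib arrays. Its log2 ratio was 0.26 in both comparisons, within the limit of 0.41, and on the unscaled intensities it was 0.01 for cordyceps and -0.82 for sunitinib. After scaling to the median, the cordyceps ratio of BCL2L1 was 0.48, beyond the limit. BCL2A1, an NF-κB target that encodes the guardian BFL-1, read 1273, 1139 and 642 in the brighter of its 2 probes, both for NM_004049. Its log2 ratios of 0.10 and 0.09 were within the limit of 0.40, and they were below 0 on the unscaled intensities, at -0.16 and -0.99. The other BCL2A1 probe read 17.4, 17.9 and 6.17, was at background throughout and was not compared. The guardians that could be measured thus had smaller ratios for cordyceps than BAX, but BAX probe 1 differed from MCL1 by 0.44 with a limit of 0.57, which does not separate these 2 ratios. BAX probe 1 did exceed BCL2L1 by 0.70 (limit 0.57) and BCL2A1 by 0.86 (limit 0.57) on the log2 scale, differences that no scaling factor changes. BAX probe 2 exceeded BCL2A1 by 0.72 (limit 0.59) but BCL2L1 by only 0.55, within a limit of 0.59, and quantile normalization brought BAX probe 1 and BCL2L1 to 0.76 and 0.25, so a difference of BAX from BCL2L1 was not clear of the technical error.

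Among the BH3-only genes, HRK had the largest cordyceps ratio of all 15 probes. HRK encodes harakiri, which binds BCL2 and BCL-XL and is low in most tissues outside the nervous system. Its probe, for accession NM_003806, read an intensity of 24.2 on the vehicle array, 104 on the cordyceps array and 11.6 on the sunitinib array. The vehicle value lay close to the lowest intensity well above background, 18.2, and 5 of the 308 negative control spots were at least as bright. On the cordyceps array 2 of the 308 were, and the sunitinib value was not well above background.

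The log2 ratio of HRK for cordyceps over vehicle was 2.36 with a technical limit of 0.69, the widest of the measured ratios. It was 2.11 to 2.58 under the other scalings and 1.03 with the normexp correction, which adds an offset of 50 to each intensity. No ratio over vehicle is given for sunitinib. Cordyceps was at least 3.23-fold higher than sunitinib.

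The 250 bases before the annotated start of HRK (RefSeq, GRCh38.p14, chr12:116881442-116881691, minus strand, printed 5′ to 3′) are shown because HRK carried the only cordyceps call. They hold none of the 5 motifs searched on both strands, which were GTAAACA of FOXO factors, the E-box CACGTG, the letters ACGTCA from the cAMP response element, the AP-1 site TGANTCA and the E2F site TTTNGCGC, and all letters are therefore in lower case.
HRK: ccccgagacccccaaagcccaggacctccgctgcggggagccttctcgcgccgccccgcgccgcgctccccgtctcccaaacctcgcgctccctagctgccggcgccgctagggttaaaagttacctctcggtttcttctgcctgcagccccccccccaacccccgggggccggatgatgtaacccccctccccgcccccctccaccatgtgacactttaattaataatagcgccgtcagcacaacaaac
The absence says only that these letters are not in this window.

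BBC3, which encodes PUMA, a p53 target that binds all guardians, read 5253 on the vehicle array, 6140 on the cordyceps array and 3360 on the sunitinib array. Its log2 ratio was 0.48 for cordyceps and 0.43 for sunitinib, each beyond the limit of 0.40, and the treated arrays differed from each other by 0.05. The sunitinib ratio was 0.02 with the normexp correction and -0.64 on the unscaled intensities, so its direction depended on the scaling. The cordyceps ratio was 0.23 to 0.70 under the other scalings.

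PMAIP1, which encodes NOXA, a BH3-only protein that binds mainly MCL1 and BFL-1, read 3148 on the vehicle array, 3657 on the cordyceps array and 362 on the sunitinib array. The sunitinib array stood far below the other 2. The log2 ratio over vehicle was -2.05 (limit 0.40) for sunitinib, or 4.13-fold lower, and 0.47 (limit 0.40) for cordyceps. Cordyceps was 5.73-fold higher than sunitinib. The sunitinib ratio lay between -3.12 and -2.04 under all scalings and background corrections tried, and the cordyceps ratio between 0.22 and 0.69.

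The 250 bases before the annotated start of PMAIP1 (RefSeq, GRCh38.p14, chr18:59899746-59899995, plus strand) are shown because PMAIP1 carried the only lower call. The capitals mark ACGTCA, part of the cAMP response element bound by ATF and CREB factors, beginning 56 bases before the start.
PMAIP1: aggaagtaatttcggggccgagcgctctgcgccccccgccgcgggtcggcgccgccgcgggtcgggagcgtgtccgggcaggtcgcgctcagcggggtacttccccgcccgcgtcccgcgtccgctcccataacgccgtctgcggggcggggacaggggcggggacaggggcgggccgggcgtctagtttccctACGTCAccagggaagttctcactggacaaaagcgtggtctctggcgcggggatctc
ACGTCA on either strand was found in 7.1% of the 35116 promoter windows.

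BCL2L11, which encodes BIM, an activator that binds all guardians and is kept low by ERK phosphorylation and by growth factor signals to FOXO3, was the only gene with 3 probes. Probe 1, for accession NM_207002, read 388 on the vehicle array, 264 on the cordyceps array and 390 on the sunitinib array. Probe 2, for NM_138621, read 289, 167 and 595, and probe 3, also for NM_207002, read 221, 121 and 394. In each probe the cordyceps array was lowest and the sunitinib array highest, in probe 1 by a small margin before scaling.

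The log2 ratios of BCL2L11 for sunitinib over vehicle were 1.08, 2.11 and 1.91 for probes 1, 2 and 3, each with a limit of 0.40. For cordyceps over vehicle they were -0.30 within a limit of 0.41, and -0.53 and -0.62 beyond limits of 0.42 and 0.43. Set against each other, cordyceps was lower than sunitinib by 2.60-fold in probe 1, 6.26-fold in probe 2 and 5.75-fold in probe 3. All 3 probes kept their direction for sunitinib under every scaling tried, but on the unscaled intensities probe 1 was at 0.01, and probe 1 fell short of 2-fold after median scaling (0.75) and normexp (0.68). The directions for cordyceps also held under each scaling, with probe 1 at -0.08 after median scaling. The 48 spots around each spot were checked for spots far brighter on 1 array than on the others. Near probe 3, 1 spot had a level on the sunitinib array over 16-fold above its level on either other array. No other spot of the 15 probes had such a neighbour.

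The 250 bases before the annotated start of BCL2L11 (RefSeq, GRCh38.p14, chr2:111120664-111120913, plus strand) are shown because BCL2L11 carried all higher calls for sunitinib. The capitals mark GTAAACA, the core letters of FOXO sites, beginning 223 bases before the start.
BCL2L11: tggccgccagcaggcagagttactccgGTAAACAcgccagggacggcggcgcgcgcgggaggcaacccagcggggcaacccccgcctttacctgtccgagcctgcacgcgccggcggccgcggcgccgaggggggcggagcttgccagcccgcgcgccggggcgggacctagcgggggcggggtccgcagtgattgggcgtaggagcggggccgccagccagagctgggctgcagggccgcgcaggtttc
GTAAACA on either strand was found in 2.98% of the 35116 promoter windows. Of the 10 genes, 9 had a window in the table used here, with 10 start sites, and MCL1 did not. Besides the matches shown, BBC3 had 1 E-box and 1 TGANTCA, a motif found in 6.57% of windows, and BCL2L1 had 1 TTTNGCGC, found in 1.51%. No other match to the 5 motifs was found in the windows of the 9 genes.

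The 2 treated arrays set apart 2 BH3-only genes in opposite directions. Within the sunitinib comparison, the log2 ratio of PMAIP1 lay below those of BCL2L11 by 3.13, 4.16 and 3.95 for probes 1 to 3, with limits of 0.57. Within the cordyceps comparison, PMAIP1 lay above them by 0.77, 1.01 and 1.09, with limits of 0.57 to 0.59. Differences of ratios within 1 comparison do not depend on the scaling factor, and each was beyond its technical limit. Directly between the treated arrays, 3 of the 12 probes compared were more than 2-fold higher on the cordyceps array, from BAX, HRK and PMAIP1, and 3 were more than 2-fold lower, all from BCL2L11, where 8.99% and 8.96% of all 23955 probes were.

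**Figure D4:**
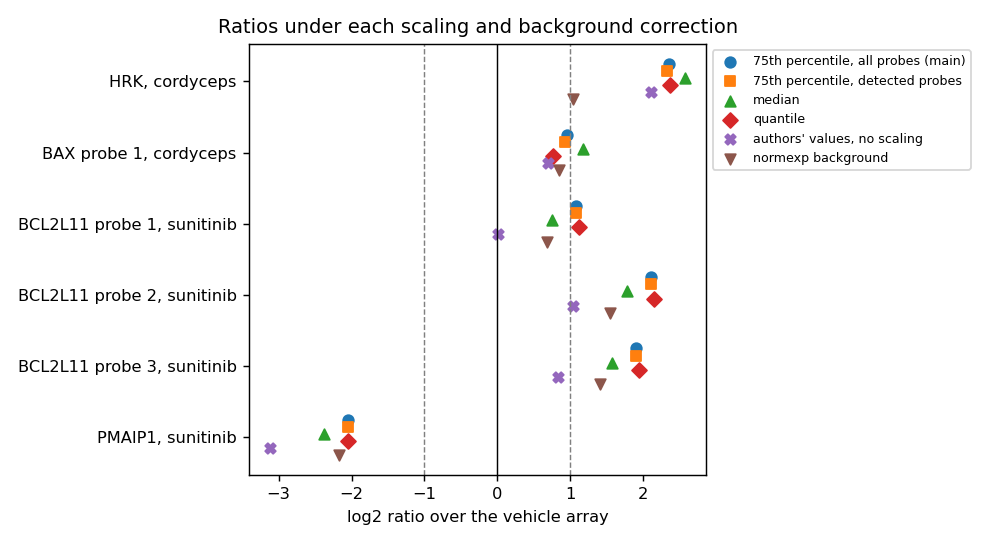
Log2 ratio over the vehicle array for the probes at or near 2-fold, under each scaling of the arrays and with the normexp background correction; dashed lines mark 2-fold. PMAIP1 runs from -3.12 to -2.04, whereas BCL2L11 probe 1 runs from 0.01 to 1.12 and HRK from 1.03 to 2.58.

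Other genes of the pathway were taken from 4 lists of 48 genes in all, each gene by its brightest probe. Among all 14786 genes compared, 2.99% were more than 2-fold higher and 2.76% lower on the cordyceps array, and among 14912 genes 6.5% and 6.53% on the sunitinib array, with a median log2 ratio of 0.00 in each comparison. Of 13 other BCL2 family genes, 11 could be compared, and BCL2L10 and BCL2L14 were at background throughout. None was called higher for cordyceps and 1 was called lower, BMF, a BH3-only gene whose protein is tethered to the cytoskeleton, at -1.05 on the log2 scale. The median was 0.00, with BNIP3 highest among measured genes at 0.51.

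BMF differed in direction between the treated arrays. It read 592 on the vehicle array, 239 on the cordyceps array and 691 on the sunitinib array, a log2 ratio of 1.30 for sunitinib. Another BMF probe gave 1.04 for sunitinib, with a technical limit of 0.78. That probe read 25.1 with vehicle and 24.4 with sunitinib, near the lowest intensities well above background. Its ratio thus rested on the scaling. BIK, a BH3-only gene of the endoplasmic reticulum, read 727, 353 and 53.0, which is a log2 ratio of -2.71 for sunitinib, 6.53-fold lower, and -0.79 for cordyceps. These were the only calls of the list for sunitinib, 1 of 11 higher and 1 of 11 lower, with a median of 0.13. BID fell just short at -0.93 by its brightest probe, but its other probe gave -1.02. After scaling to the median, BID was called lower, at -1.26. The calls of BMF depended on the scaling, since none was made in either comparison after scaling to the median.

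**Figure D5:**
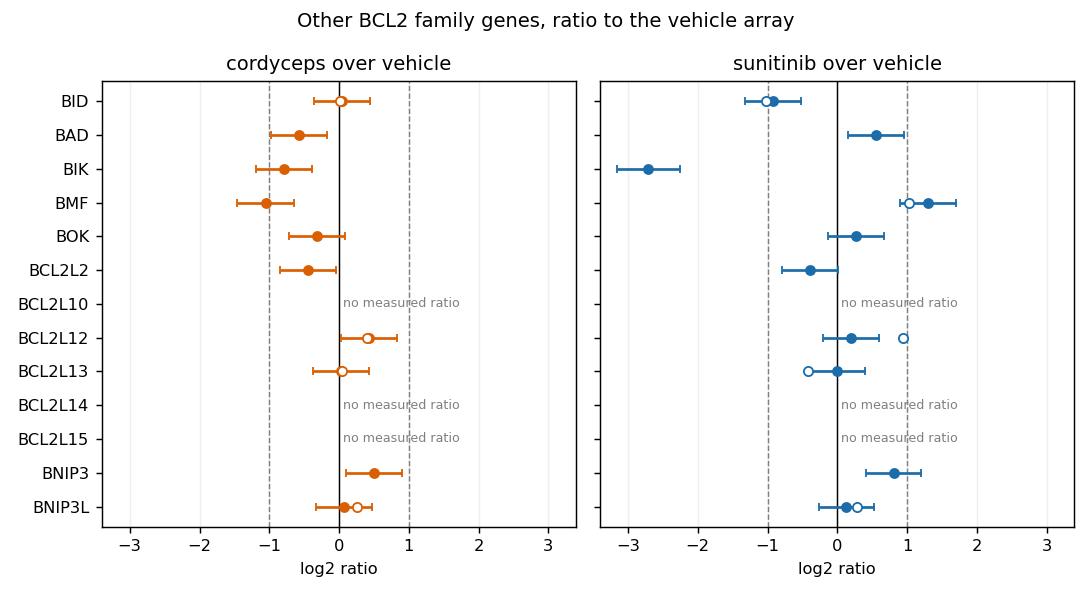
Log2 ratio over the vehicle array of the other BCL2 family genes, by the brightest probe (filled, with its 95% technical limit) and by further probes measured on both arrays (open); dashed lines mark 2-fold. BMF lies at -1.05 in the cordyceps panel and 1.30 in the sunitinib panel, and BIK at -2.71 in the sunitinib panel is the lowest.

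The 14 genes of the outer mitochondrial membrane and the apoptosome were all compared, and none was called in either comparison. Their median log2 ratio was 0.11 for cordyceps and -0.15 for sunitinib. CYCS, which encodes the cytochrome c that BAX and BAK1 pores release, was the highest for cordyceps at 0.52 and the lowest for sunitinib at -0.97. Its other probes gave 0.53 and -0.72 for cordyceps, the dimmest being the one that differed in direction. For sunitinib they gave -0.75 and -1.09, the latter more than 2-fold lower. After scaling to the median, CYCS was called lower for sunitinib, at -1.30. MTCH2, an outer membrane insertase, was the lowest for cordyceps at -0.42, and DIABLO, an antagonist of inhibitors of apoptosis, was the highest for sunitinib at 0.36.

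The 9 binding partners and turnover factors of the family were all compared. None was called for cordyceps, with a median of 0.09, and the measured ratios ran from -0.76 for USP9X, a deubiquitinase of MCL1, to 0.45 for BCAP31, a BCL2 partner of the endoplasmic reticulum. For sunitinib the median was 0.00 and 1 of 9 was called higher, BAG1, a co-chaperone that binds BCL2. Its 3 probes gave 1.21, 1.00 and 1.07 on the log2 scale for sunitinib and -0.58, -0.75 and -0.78 for cordyceps. BECN1, an autophagy protein with a BH3 domain, was the lowest for sunitinib at -0.49.

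Of 12 transcription factors known to act on these genes, 11 were compared. None was called for cordyceps, with a median of -0.06. JUN, an AP-1 subunit, was highest at 0.98, and NFKB1, the NF-κB subunit p105, was lowest at -0.81. For sunitinib none was called higher and 3 of 11 were called lower, with a median of 0.09. These were JUN at -1.66, NFKB1 at -1.25 and E2F1, a cell cycle factor, which was not well above background on the sunitinib array and at least 2.82-fold lower. FOXO1 was the highest at 0.90, with intensities of 274, 213 and 242 on the vehicle, cordyceps and sunitinib arrays.

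The list medians shifted with the scaling. That of the other family genes for cordyceps was 0.00 on the 75th percentile scale and after scaling to the median. BCL2L15, a gene without a bound, held it there. It was -0.17 after quantile normalization, and -0.14 over the measured genes alone on the 75th percentile scale. After scaling to the median, the lists of other family genes, mitochondrial genes, binding partners and transcription factors had medians of 0.00, 0.33, 0.31 and 0.16 for cordyceps, beside 0.18 for all genes, and of -0.14, -0.48, -0.32 and -0.24 for sunitinib, beside -0.31 for all genes. On that scale JUN was called higher for cordyceps, at 1.20, BAG1 was no longer called for sunitinib, and the sunitinib calls of the lists were all in the lower direction. After quantile normalization, the sunitinib median of the transcription factors was -0.27, with 4 of 11 called lower, beside -0.0005 for all genes. The sign of that median thus depended on the normalization.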

How the data were processed

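RNA of 3 TK-10 cultures was measured, 1 per condition, and groups were taken from the labels. The authors deposited 1 Agilent file per array (Feature Extraction 11.5.1.1), where each of 62976 spots has a processed Cy3 intensity, background-subtracted on a linear scale and not scaled between arrays, with an error estimate; the build named is hg19. The array and the ratio analysis in the study's methods do not apply to these files, and of them the 2-fold limit alone was used. The deposited value table equalled the mean processed intensity within 0.01% for 99.87% to 99.92% of probes.

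Control and outlier spots were left out, repeated spots averaged, and log2 intensity computed relative to the 75th percentile of each array, taken over all probes. Where 1 array was not well above background, its value was raised to the lowest intensity well above background there and the ratio is a bound; probes without a bound above 1 counted as compared at a log2 ratio of 0. The technical limits cover error within arrays only, and the number of arrays limits the precision. Genes were named by accession through RefSeq (GRCh38.p14), used for no coordinates but those of its promoter windows. The members and lists were chosen with earlier results of these data known. The genes named are the members, every called gene of the other lists and their highest and lowest measured gene, besides BID and genes without a ratio. In all, 12 alternatives were planned: scaling (detected probes, median, quantile, none), normexp with an offset of 50, outlier spots, filters on dim probes, bright areas, the technical limit and the mean of a gene's probes. Python 3.11.15, numpy 2.4.6, pandas 2.3.3, matplotlib 3.10.9, R 4.3.3 and limma 3.58.1 were used, tested on simulated arrays. The protein, cell and animal experiments were not analysed here.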

Additional observations from a re-analysis of the deposited data

How the results depend on the processing

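No paired analysis was possible because each condition had 1 array, and leaving out a replicate was not possible for the same reason. The 4 counts of called BCL2 family probes were 1 higher and 0 lower for cordyceps and 3 higher and 1 lower for sunitinib. They moved by over 1.5 times in 6 of 44 recalculations. Scaling to the median gave 3 higher probes for cordyceps, with both BAX probes added to HRK. The unscaled intensities gave 1 higher probe for sunitinib, BCL2L11 probe 2, and 4 lower probes, with BAX probe 1, BAK1 and MCL1 added to PMAIP1. The technical limit in place of 2-fold gave 7 higher and 2 lower probes for cordyceps and 5 higher probes for sunitinib. Of the ratios of single probes, 16 of 230 moved by more than their 95% technical limit, 11 on the unscaled intensities and 5 with normexp. Of the list counts 7 of 48 moved by over 1.5 times, 6 of them after median scaling. No called ratio changed sign. Over all probes, the 968 higher and 670 lower calls for cordyceps became 5798 and 2521 with no filter on dim probes, 2834 and 2521 with a positive and significant signal as the filter, 1469 and 372 after median scaling, 666 and 1444 unscaled and 425 and 262 with normexp. For sunitinib the 2193 and 1540 calls became 24770 and 3200, 7360 and 3200, 1271 and 3214, 421 and 13281 and 773 and 1120, respectively. BCL2, HRK on the sunitinib array and the dimmer BCL2A1 probe could not be measured above background there, and HRK on the vehicle array lay near it, so its ratio for cordyceps carried the widest technical limit.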
